A study of Mus musculus with 48 samples.

Results

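The genes described here are 10 genes of the choroid plexus epithelium, Ttr, Enpp2, Folr1, Kl, Clic6, Sostdc1, Kcne2, Otx2, Prlr and F5, out of 24421 genes listed in each of 6 expression tables. They were picked by name, after Ttr had been seen among the largest rises of the hippocampus between P1 and P14. The hippocampus P1 to P14 values below are therefore a description without a test. The libraries were made from astrocytes, glial cells that support neurons, and the question was in which regions, ages and single libraries RNA of these choroid plexus genes was found.

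The choroid plexus is a sheet of epithelium inside the brain ventricles that makes cerebrospinal fluid and hands hormones, vitamins and ions from the blood to that fluid. One of these sheets, in the lateral ventricle, lies against the hippocampus. Its cells are known for making transthyretin, the product of Ttr, in very large amounts, and astrocytes are not known for it.

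The study holds 48 bulk RNA-seq libraries of mouse astrocytes in 15 groups. Cortex was sampled at P1 (3 libraries), P7 (3) and P14 (4), and hippocampus and olfactory bulb at P1, P7 and P14 with 3 libraries each. These 28 libraries carry no genotype label. At P28, animals labelled Gabbr1 cKO (a conditional knockout of a GABA-B receptor subunit) were set against animals labelled Gabbr1 control, with 4 cKO and 4 control libraries in cortex, 4 cKO and 2 control libraries in hippocampus, and 3 of each genotype in olfactory bulb. Tamoxifen is listed as the treatment for every P28 hippocampus and olfactory bulb library of either genotype and for 3 P28 cortex libraries, control replicates 3 and 4 and cKO replicate 4, which came in a later deposit. It is not listed for the other 5 P28 cortex libraries. The labels name no Cre driver and do not say whether replicates are separate animals, so p-values measure the spread between these libraries, which may be technical.

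Values are normalized reads, that is gene reads divided by a factor per library. The tables were scaled separately, so levels in different tables are set side by side in RPM, the reads of a gene per 1000000 gene reads other than those of Rn45s, the ribosomal RNA precursor, and are not tested against each other. Gene reads per library ran from 1773226 to 15008466, and Rn45s took between 13.7% and 38.0% of them in 46 libraries. The exceptions were replicate 2 of the hippocampus P28 cKO group, with 0.594%, and replicate 2 of the olfactory bulb P28 controls, with 0.476%. A library with 0 reads of a gene still allows up to 3 reads, which is 0.25 to 2.00 RPM depending on the library; these limits and the Wilson intervals below cover counting error only, while those of log2 differences cover the spread between libraries. Gabbr1 itself was lower in every cKO library than in every control of its region: the cortex controls had 927 to 1930 normalized reads and the cKO libraries 89.8 to 211, the hippocampus controls 779.8 and 824 and the cKO libraries 151.7 to 379.9, and the olfactory bulb controls 184 to 318 and the cKO libraries 63.6 to 99.5. A list of 10 astrocyte markers had reads of all 10 genes in every library, with a summed level from 2017 RPM in olfactory bulb P1 to 139923 RPM in cortex P14.

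Otx2 encodes the homeodomain transcription factor needed to form the choroid plexus, and homeodomains of its kind bind TAATCC, which reads GGATTA from the other strand. Because the members move together across libraries, the 250 bases before each annotated start were searched for these letters on both strands, in RefSeq promoters of GRCm38.p6. Entries were found for 5 members (Kl, Kcne2, Otx2, Prlr and F5) with 11 start sites, and 1 of the 11 held the motif, against 6.25% of 32851 promoters. The match was before one of the starts of Otx2 itself, on the minus strand at chr14:48665303-48665332, 211 bases before that start and inside an annotated exon of Otx2. It is shown with the motif in capitals.
Otx2: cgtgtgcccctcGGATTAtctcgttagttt
The match is a description of letters and not a binding site, and no match in the other windows says only that these letters are not there.

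The group levels ran in the same order at the top for all 10 members. Hippocampus P28 control had the highest mean RPM for 10 of 10 members and hippocampus P28 cKO the next highest for 10 of 10, and these neighbours overlapped in every case. The ranges of hippocampus P28 cKO and of the third group did not overlap for 9 of 10 members, and over the 11638 genes with a mean of at least 10 in the P28 hippocampus table the second and the third group did not overlap for 10.9%. The third group was hippocampus P14 for 8 of 10 members, and it overlapped the fourth for 10 of 10. In bulk RNA, the cells that these reads came from are not seen, and more choroid plexus cells and more RNA per cell cannot be told apart.

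**Figure D1:**
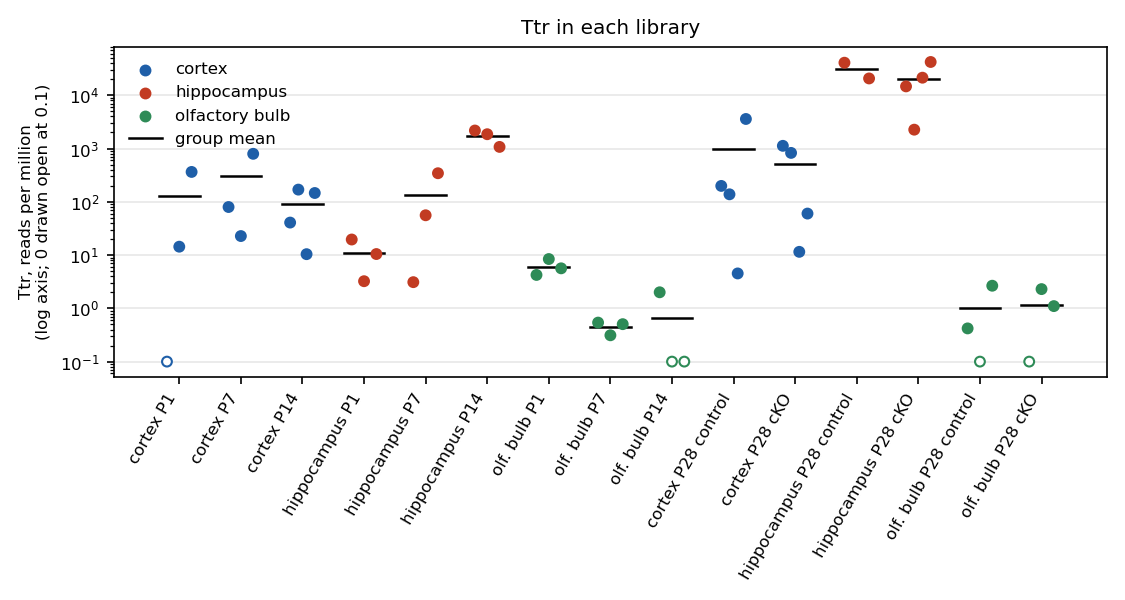
Ttr in RPM (log axis) in each of the 48 libraries; points are libraries, black lines are group means, and open points at 0.1 are libraries with 0 reads. The 6 hippocampus P28 libraries run from 2259.8 to 42146 RPM, and no olfactory bulb library is above 8.42 RPM.

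Ttr encodes the carrier of thyroid hormone and retinol-binding protein that the epithelium secretes. In the P28 hippocampus, the controls had 40845 and 20685 RPM of Ttr, and the cKO libraries had 14678, 2259.8, 21372 and 42146 RPM. The 6 libraries thus ran over an 18.7-fold range, and all but cKO replicate 2 were above the highest of the other 42 libraries, which was cortex P28 control replicate 4 at 3587 RPM. Per kilobase of exon, Ttr ranked 1 among all genes with an annotated length in 5 of the 6 libraries and 6 in cKO replicate 2.

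Enpp2 encodes autotaxin, the secreted enzyme that makes lysophosphatidic acid, and it is also made by oligodendrocytes. Its P28 hippocampus levels were 36848 and 18113 RPM among controls, and 12328, 5375, 17165 and 24247 RPM among cKO libraries. Each of these exceeded the highest level elsewhere, 1965 RPM, again in cortex P28 control replicate 4. Per kilobase of exon, Enpp2 reached 930.1 to 6376 RPM there, against 1905 to 35536 for Ttr, so that Ttr was the higher in all 6 libraries.

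The receptors and regulators followed at lower levels. Kl encodes klotho, the co-receptor for the hormone FGF23 that is also shed into the fluid, and its controls stood at 2323 and 1074 RPM and its cKO libraries at 778, 200.3, 1151 and 1086 RPM, against at most 69.5 RPM elsewhere. Prlr, the prolactin receptor, stood at 1364 and 482 RPM and at 352, 369, 432 and 677 RPM, against at most 50.8 RPM elsewhere. Folr1, the folate receptor that carries folate into the fluid, stood at 128 and 63.1 RPM and at 44.7, 8.49, 65.1 and 90.6 RPM, against at most 14.7 RPM elsewhere. For Kl and Prlr every P28 hippocampus library was above every other library, while for Folr1 cKO replicate 2 fell within the range of the rest.

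F5, which encodes coagulation factor V, was at 396 to 1761 RPM in the 6 libraries and at 84.9 RPM or less in the other 42. Otx2 was at 116 to 528 RPM against at most 67.1 RPM. Sostdc1, a secreted inhibitor of BMP and Wnt signals, was at 92.5 to 303 RPM against at most 22.05 RPM. These 3 genes, the transcription factor and the other secreted products, showed no overlap between P28 hippocampus and the rest. Clic6, of the chloride intracellular channel family, was at 170.0 to 1136 RPM against at most 129.6 RPM. Kcne2, a subunit of potassium channels of the epithelium, was at 16.3 to 178 RPM against at most 14.1 RPM, the narrowest margin of the 8 genes with no overlap.

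In all, 8 of 10 members had each P28 hippocampus library above each of the other 42 libraries, and the exceptions were Ttr and Folr1; over all 11638 genes with a mean of at least 10 in the P28 hippocampus table, 0.98% did. Without hippocampus P28 cKO replicate 2 the count was 10 of 10 with 2.48% over all genes, and without cortex P28 control replicate 4 it was 9 of 10 with 0.997%. Of a list of 30 other choroid plexus genes, 29 passed the mean of 10 and 14 of these separated in the same way, or 23 without that cKO library. Among them were Kcnj13, a potassium channel, at 104.9 to 501 RPM in the 6 libraries against at most 32.7 elsewhere, and Car12, a carbonic anhydrase.

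Summed marker levels of other cell types next to the ventricle were also high in most of these libraries. In the ependymal and in the fibroblast list, 1 of 8 genes above the mean of 10 separated, beside 0.98% of all 11638 genes. The summed level of 12 ependymal markers, which mark the ciliated lining of the ventricles, was 119.3 to 312 RPM in 5 P28 hippocampus libraries, 39.03 RPM in cKO replicate 2, and 8.17 to 59.4 RPM in the other 42. Of its 8 genes above the mean of 10, 1 separated (Cfap126). In P28 hippocampus Ccdc153 and Tmem212 of that list were at or below 1.60 and 2.67 RPM, so its other genes held most of the sum. The summed level of 12 fibroblast markers was 631 to 3566 RPM in P28 hippocampus and 23.6 to 687 RPM in the other 42, and of it Igf2, a growth factor that the choroid plexus makes too, held 547 to 3286 RPM in P28 hippocampus; Igf2 alone of its 8 genes above the mean of 10 separated. Col1a1 of that list was at 3.16 to 29.5 RPM there. Ccdc153, Tmem212 and Col1a1 are single members and do not describe lists whose sums were high there. The part of ependymal and stromal cells in the members' levels was not tested. No gene of the oligodendrocyte, precursor, neuron, microglia, endothelial, astrocyte or blood lists separated. With 0.98% over all genes, the lack of such genes in lists this short says little.

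**Figure D2:**
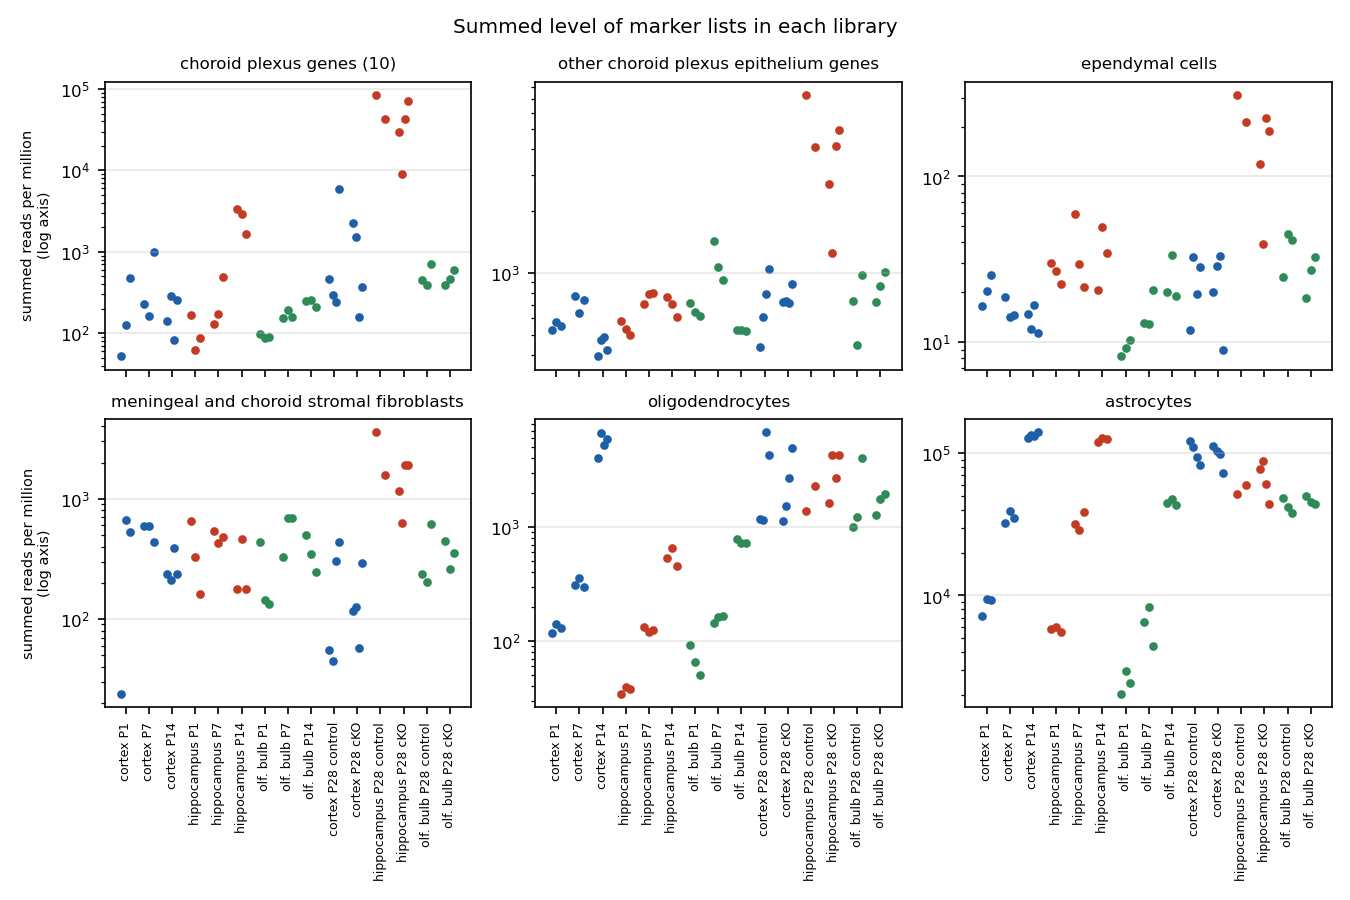
Summed RPM (log axis) of the 10 choroid plexus genes and of 5 marker lists, 1 point per library, by group; blue is cortex, red hippocampus and green olfactory bulb. The choroid plexus, ependymal and fibroblast lists reach their highest sums in the P28 hippocampus, and the astrocyte list does not. In the fibroblast list, Igf2 alone separated the P28 hippocampus libraries from all others.

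The 10 members together took 8.54% of the gene reads other than Rn45s in hippocampus P28 control replicate 1 (95% Wilson interval 8.51% to 8.57%) and 0.909% in cKO replicate 2 (0.898% to 0.920%). The other 4 libraries lay between, at 2.95% to 7.08%. The astrocyte list ran the other way at the extremes, with 88792 RPM in cKO replicate 2, the lowest in the members, and 51685 and 43723 RPM in control replicate 1 and cKO replicate 4, the highest in them.

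**Figure D3:**
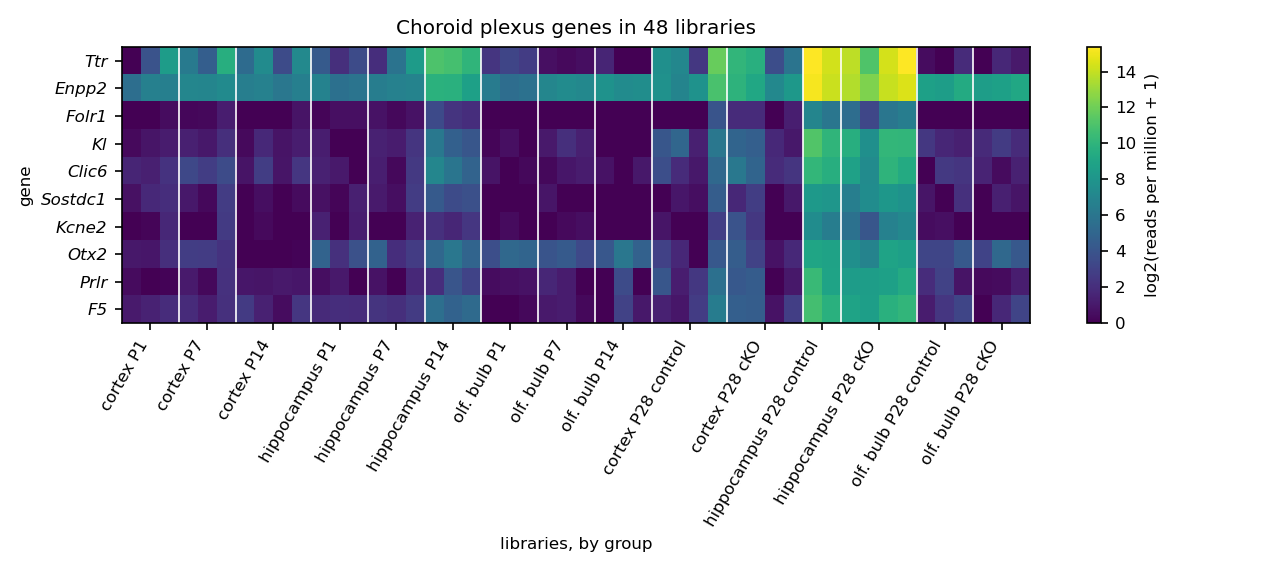
Each of the 10 genes (rows) in each of the 48 libraries (columns, by group), coloured by log2(RPM + 1). The P28 hippocampus columns are bright in all rows, the hippocampus P14 and some cortex P28 columns are brighter than their neighbours, and in olfactory bulb mainly Enpp2 and Otx2 stand above the floor.

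The genotype comparison at P28 in hippocampus called 0 of 10 members with limma (background: 0% of 11639 genes called in either direction), 0 at an unadjusted p under 0.05, and 0 with edgeR or DESeq2. Controls had 127692 and 61859.8 normalized reads of Ttr and cKO libraries 46712, 9617, 64702 and 121474, a log2 difference (cKO minus control, on log2(value + 1)) of -1.04 with a 95% interval of -3.17 to 1.10. The genotypes overlapped. Controls had 7261 and 3213 normalized reads of Kl and cKO libraries 2477, 852, 3486 and 3131, a log2 difference of -1.14 (-2.42 to 0.14). The values of the 10 members were all negative, from -0.56 for Sostdc1 to -1.14 for Kl with a median of -0.89, beside a median of -0.04 over all genes, and each had an adjusted p of 0.936. The members vary together across libraries, so 10 negative values are not 10 separate observations. Each interval includes 0 and reaches at least as low as -1.49. Single libraries moved these values: Ttr was at -0.31 without cKO replicate 2 and -0.51 and -1.56 without control replicate 1 or 2, and on leaving out any 1 library Enpp2 ran from -1.44 to -0.35, Kl from -1.73 to -0.55 and Sostdc1 from -0.74 to -0.23.

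In the developing hippocampus, P14 stood apart from the earlier ages for each of the 10 members. Every P14 library was above every P1 and every P7 library for 10 of 10 members, while 23.1% of all 11578 tested genes did this against P1 and 17.7% against P7; because Ttr in this table led to the list, nothing is read from that count. The 3 P14 libraries also held reads of all 10 genes. Labels of P14 replicates 1 and 2 carry a version mark whose meaning is not given.

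Ttr was at 45.6, 8.02 and 24.6 normalized reads at P1, at 7.85, 141 and 926 at P7, and at 7716, 6649 and 3855 at P14. The P14 mean was 233-fold the P1 mean, a log2 difference of 8.04 (SE 1.24). The P7 libraries spread over a range from below the highest P1 library to P7 replicate 3, at 926. Enpp2 was at 261, 125 and 137 at P1, at 227, 276 and 316 at P7, and at 3162, 3057 and 1508 at P14, a log2 difference between P14 and P1 of 3.88 (SE 0.32). Per kilobase of exon, Ttr and Enpp2 were close at P1 in replicate 1 (16.5 and 19.4 RPM) and replicate 3 (8.82 and 10.1 RPM), and replicate 2 had 2.72 RPM of Ttr and 8.70 RPM of Enpp2.

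Kl had reads in 1 of the 3 P1 libraries, at 3.21 normalized reads, was at 4.23, 3.13 and 11.4 at P7, and was at 246, 91.5 and 57.3 at P14. Clic6 was at 3.92, 2.67 and 0 at P1, at 3.62, 0.626 and 13.2 at P7, and at 459, 217 and 104 at P14. Both were lowest at P14 in replicate 3, as Ttr and Enpp2 were. F5, by contrast, was lowest at P14 in replicate 2, at 6.05, 7.57 and 6.76 at P1, at 10.3, 8.13 and 14.2 at P7, and at 168, 97.03 and 136 at P14. Of the 8 fitted members, Otx2 had the smallest log2 difference between P14 and P1, 2.43 (SE 0.81), from 66.2, 8.46 and 30.7 at P1, through 70.6, 7.51 and 15.1 at P7, to 120.4, 240.4 and 107 at P14.

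The other 4 members were low before P14. Sostdc1 was at 0.446 to 3.69 at P1 and 37.5 to 68.8 at P14, and Prlr at 0 to 2.67 and 10.7 to 55.1. Folr1 and Kcne2 did not reach a table mean of 10 and were left out of the fit; Folr1 was at 35.5, 14.3 and 10.7 at P14, at least 14.3-fold higher than P1 with P1 taken at 3 reads per library, and Kcne2 was at 11.8, 7.72 and 16.1. At P7, replicate 3 had the highest normalized value of its group for 9 of the 10 members, and Otx2 was the exception. For Folr1 this rests on 1 to 3 reads per library, and in RPM replicate 1 was the highest.

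**Figure D4:**
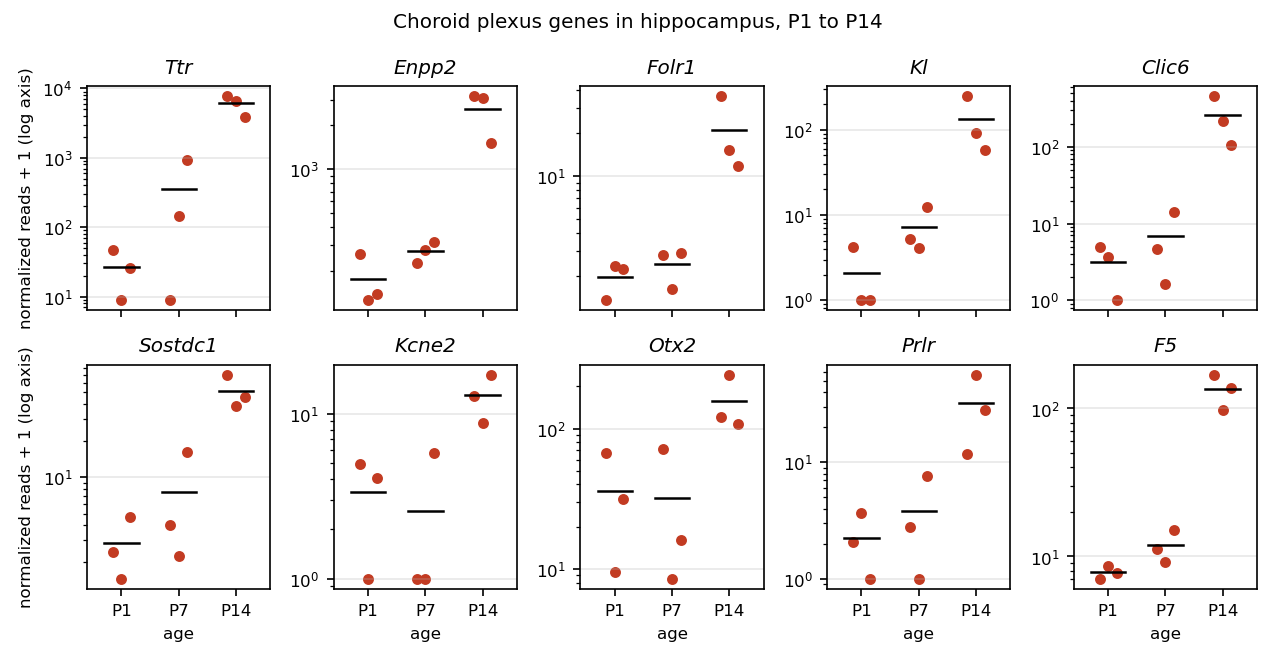
Normalized reads + 1 (log axis) of each gene in the 3 hippocampus libraries of P1, P7 and P14; red points are libraries and black lines are means. In every panel the 3 P14 points lie above all P1 and P7 points, with the narrowest gaps for Otx2, Kcne2 and Prlr.

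Of the 30 other choroid plexus genes, 16 reached a mean of 10 in this table, with a median log2 difference between P14 and P1 of 2.55 beside -0.29 over all genes. That list was also chosen with results of these data known, so its values are given without a test. A gene near 0 at P1 and P7 reaches that mean only through P14. The filter thus favours genes that rise, in this list and in those of other cells below. Htr2c, the serotonin receptor 2C, had a log2 difference of 5.38 (SE 0.80), and Lbp, a lipopolysaccharide-binding protein, one of 4.90 (SE 0.71). Slc12a2, the sodium, potassium and chloride cotransporter, which other brain cells also make, had one of -1.29 (SE 0.34). Kcnj13 did not reach the mean of 10, at 0.924 to 1.99 RPM at P14. Markers of other cells also differed between these ages, with a median log2 difference of 3.77 over 10 astrocyte genes, 4.29 over 5 oligodendrocyte genes and -1.21 over 11 fibroblast genes. The ependymal list had a median sum of 34.4 RPM at P14 and 26.9 RPM at P1, with ranges that overlapped. The part of these cell types in the members' levels was not tested.

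Cortex was uneven from library to library. Ttr was at 0, 42.3 and 1073 normalized reads at P1, at 242, 70.4 and 2442 at P7, and at 157.01, 660.3, 39.4 and 580.4 at P14. One library at P1 and one at P7, replicate 3 in each, held most of the Ttr of its group, and the ages overlapped. Of 3 members that reached a mean of 10 (Ttr, Enpp2 and Clic6), 1 rose from P1 to P7 (background: 15.6% of 11822 genes rose), 1 rose from P1 to P14 (24% rose) and 0 were called between P7 and P14 (49.8% called in either direction).

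Enpp2 was the member that rose in cortex. It was at 136, 307 and 294 normalized reads at P1, at 391, 385 and 506 at P7, and at 358, 418, 259.5 and 387 at P14. P7 did not overlap P1, with a log2 difference of 0.88 (SE 0.26, limma adjusted p = 0.0209), while P14 overlapped P1, with 0.60 (SE 0.25, adjusted p = 0.0468). The P7 call was lost without P1 replicate 1 (log2 difference 0.50) or without P7 replicate 3 (0.75), and the P14 call without P1 replicate 1 (0.22) or without P14 replicate 1, 2 or 4 (0.59, 0.52 and 0.55). The P14 call was also lost without a filter on low values (adjusted p = 0.0706) and with a pseudocount of 0.1 (adjusted p = 0.0516); over all alternatives its adjusted p ran from 0.00239 to 0.291. Oligodendrocyte markers summed to 117.8 to 139.9 RPM at P1, 299 to 358 RPM at P7 and 4009 to 6725 RPM at P14, and their part in Enpp2 was not tested.

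Clic6 was at 5.97, 4.53 and 11.3 normalized reads at P1, at 27.1, 18.6 and 31.7 at P7, and at 3.03, 22.6, 3.15 and 17.7 at P14. The P7 libraries were above all P1 libraries but did not pass the adjusted threshold (log2 difference 1.75, SE 0.67, adjusted p = 0.0594). Against P7, P14 gave -1.4997 (SE 0.63, unadjusted p = 0.032, adjusted p = 0.0616), the 1 member with an unadjusted p under 0.05 there; edgeR and DESeq2 called none. Without P14 replicate 2 or 4 it was called, at -1.95 and -1.84. Ttr was called higher than at P1 once P1 replicate 3 was left out, at 5.73 for P7 and 5.08 for P14 on the log2 scale, against 3.28 (SE 1.94, adjusted p = 0.214) and 2.63 (SE 1.81, adjusted p = 0.219) with it.

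Otx2 in cortex was too low for the fit and was nearly lost by P14. It was at 2.84, 2.77 and 9.24 normalized reads at P1, at 17.9, 17.8 and 11.8 at P7, and at 0, 0, 0 and 0.519 at P14. No P14 library reached any earlier library, although 2 of the P14 libraries had 660.3 and 580.4 normalized reads of Ttr. Without a filter on low values, Otx2 was called between P14 and either earlier age. Sostdc1 and Kcne2 were at or below 1.89 and 1.26 normalized reads at P14, but for both genes P14 overlapped P1 and P7.

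In the P28 cortex, 3 of 8 libraries held most reads of the 10 members. The controls had 498, 349, 9.87 and 7424 normalized reads of Ttr and the cKO libraries 2769, 1925, 27.2 and 122. Control replicate 4 and cKO replicates 1 and 2 were high, and replicate 3 was the lowest in either genotype. Summed over the 10 members, these 3 libraries reached 5852, 2282 and 1507 RPM and the other 5 between 158.99 and 467 RPM. Per kilobase of exon, Ttr ranked 6 among all genes in control replicate 4.

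Enpp2, F5 and Folr1 followed Ttr in these libraries. For Enpp2 the controls had 538, 300.1, 492 and 4068 normalized reads and the cKO libraries 2402, 1308, 333 and 590.1. F5 was at 4.23, 2.34, 12.1 and 176 against 58.3, 51.4, 1.60 and 12.5. Folr1 was at 0 in 3 controls and at 30.4 in control replicate 4, and it was at 6.73, 6.29, 0 and 2.88 in the cKO libraries. The same 3 libraries were thus the highest for all of these genes. Kl was spread otherwise, with 41.2 and 84.1 normalized reads in control replicates 1 and 2, and 138 in control replicate 4, against 74.05, 55.6, 5.59 and 1.92 in the cKO libraries.

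Limma called 0 of 7 tested members between genotypes in cortex (background: 0.00982% of 10188 genes), 0 had an unadjusted p under 0.05, and edgeR and DESeq2 called 0. The genotypes overlapped for every member, and every adjusted p was 1.00. The log2 difference of Ttr was 0.10 with an interval of -3.28 to 3.47, and that of Enpp2 was 0.23 (-1.20 to 1.67). Leaving out control replicate 4 moved Ttr to 1.57, and leaving out control replicate 3 moved it to -1.56. With the round of deposit as a covariate, Ttr was at -0.21. Other cell types differed between these libraries too: ependymal markers summed to 28.4 RPM in control replicate 4 against 8.99 to 33.2 RPM in the other 7, fibroblast markers to 439.99 RPM against 44.4 to 303 RPM, and oligodendrocyte markers to 4255 RPM against 1131 to 6765 RPM. The part of the ependymal, fibroblast and oligodendrocyte cells in the members' levels was not tested.

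In olfactory bulb, most of the members were at or near 0. Folr1 had 0 reads in all 15 libraries, which allows at most 0.454 to 2.00 RPM per library at P1 to P14 and 0.826 to 1.62 RPM at P28. Ttr was at 10.04, 19.4 and 13.2 normalized reads at P1, at 1.23, 0.715 and 1.19 at P7, and at 5.96, 0 and 0 at P14. At P28 the controls had 1.15, 0 and 6.62 and the cKO libraries 0, 5.97 and 2.90. The P1 libraries were above all P7 and P14 libraries, at levels of 24 to 44 reads.

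Enpp2 and Otx2 were the members that reached a mean of 10 in the P1 to P14 table there. Enpp2 was at 193, 99.1 and 121 normalized reads at P1, at 299.9, 385 and 337 at P7, and at 672, 496 and 516 at P14. It rose at each step without overlap, with log2 differences of 1.35 from P1 to P7 (SE 0.24, limma adjusted p = 0.00467), where 7.59% of 11490 genes rose, and of 0.71 from P7 to P14 (SE 0.24, adjusted p = 0.0283), where 20.4% rose. From P1 to P14 it rose by 2.06 (SE 0.24, adjusted p = 2.9e-05; 24.8% of genes rose), and that call passed in every alternative run. At P28 the controls had 1175, 1159 and 1668 and the cKO libraries 999, 1081 and 1474. Oligodendrocyte markers summed to 50.7 to 92.5 RPM at P1, 142.5 to 164 RPM at P7, 719 to 793 RPM at P14 and 995 to 4033 RPM at P28, and their part in Enpp2 was not tested.

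Otx2 was at 27.6, 81.5 and 71.7 normalized reads at P1, at 33.2, 45.04 and 21.95 at P7, and at 51.7, 197 and 76.4 at P14. It rose from P7 to P14 (log2 difference 1.49, SE 0.53, limma adjusted p = 0.0389), and the P1 libraries overlapped both other ages. Leaving out any 1 of P7 replicates 1 and 3 or P14 replicates 2 and 3 lost that call, at 1.52, 1.23, 0.95 and 1.63, and leaving out P7 replicate 1 or 3 or P14 replicate 1 lost that of Enpp2 between P7 and P14, at 0.63, 0.71 and 0.58. Otx2 was therefore present in olfactory bulb libraries in which Folr1 had no read and Ttr was at or below 19.4 normalized reads. Otx2os1, an antisense RNA, overlaps Otx2; whether counting used strand is not given in the sources used here, so reads of the pair cannot be told apart.

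Between genotypes in olfactory bulb, 0 of 3 tested members (Enpp2, Otx2 and F5) were called by limma, edgeR or DESeq2, and 0 had an unadjusted p under 0.05 (background: 0% of 11539 genes). For Otx2 the controls had 22.96, 25.5 and 47.3 normalized reads and the cKO libraries 19.8, 90.6 and 47.1, a log2 difference of 0.52 (-0.80 to 1.85, adjusted p = 0.885). The value for Enpp2 was -0.17 (-0.70 to 0.36, adjusted p = 0.899) and that for F5 was -1.09 (-3.94 to 1.77, adjusted p = 0.887).

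The members were also compared with Ttr within each library, over the 16 libraries with at least 1000 Ttr reads. Enpp2 had 575 to 902 reads per 1000 Ttr reads in 5 P28 hippocampus libraries and 207 to 868 in the 10 libraries of hippocampus P14 and cortex, and these ranges overlapped. In the 5 P28 hippocampus libraries other than cKO replicate 2, the ratio to Ttr varied least for Folr1 (1.46-fold), Kcne2 (1.51-fold), Enpp2 (1.57-fold) and F5 (1.64-fold). It varied more for Prlr (2.08-fold), Kl (2.21-fold), Otx2 (2.36-fold), Sostdc1 (2.41-fold) and Clic6 (3.06-fold), while Ttr itself lay between 14678 and 42146 RPM, so proportions were not fixed. Hippocampus P28 cKO replicate 2 had other proportions, with 2379 reads of Enpp2, 175 of F5, 163 of Prlr and 77.5 of Sostdc1 per 1000 Ttr reads, against at most 902, 43.1, 33.4 and 13.2 in the other 5. Folr1, at 3.75, was closer to the other 5, which had 2.15 to 3.14. This is also the library with 0.594% of its reads in Rn45s; the part of library preparation in these proportions was not tested.

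**Figure D5:**
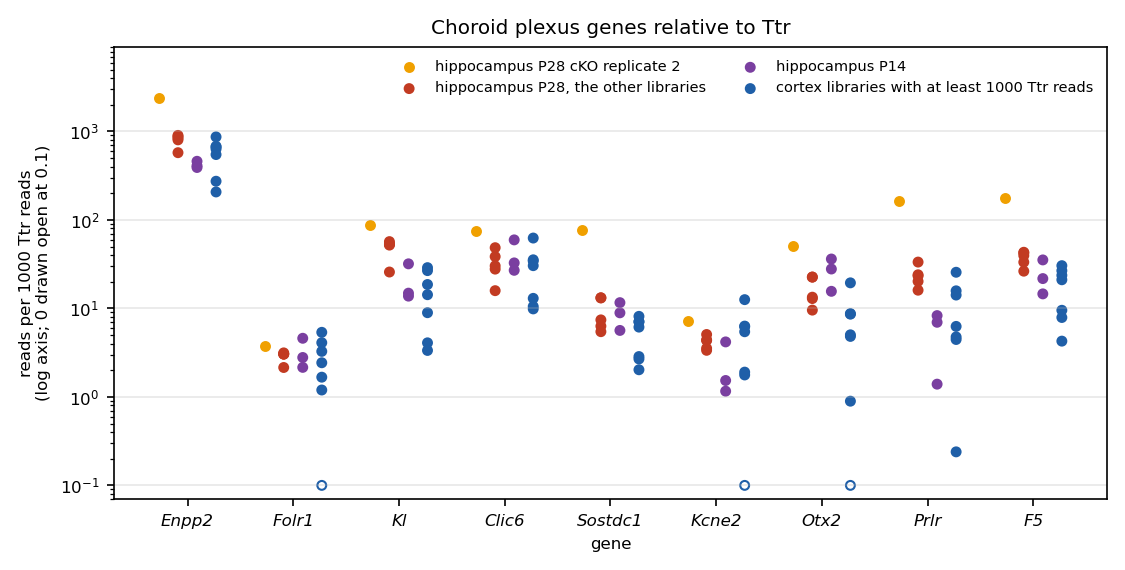
Reads of each of the other 9 genes per 1000 reads of Ttr (log axis) in the 16 libraries with at least 1000 Ttr reads, coloured by group; open points at 0.1 are libraries with 0 reads of that gene. Hippocampus P28 cKO replicate 2 lies above the other P28 hippocampus libraries for all 9 genes, by the most for Sostdc1, Prlr and F5 and by the least for Folr1.

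Between ages, the proportions of Prlr and Enpp2 did not overlap, and those of the other members did. Enpp2 had 575 to 902 reads per 1000 Ttr reads in those 5 P28 hippocampus libraries, and 410, 460 and 391 in the P14 hippocampus. Prlr had 16.1 to 33.4 reads per 1000 Ttr reads in those 5 P28 hippocampus libraries and 1.39, 8.29 and 6.97 in the P14 hippocampus. Kl had 25.8 to 56.9 in the former and 31.9, 13.8 and 14.9 in the latter. Otx2 ran the other way in part, with 9.57 to 22.6 at P28 and 15.6, 36.2 and 27.9 at P14. Ratios within a library share its Ttr count, so these values are not independent of each other, and they come from separately made libraries.

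Across the 48 libraries, after subtracting group means, log2(RPM + 1) of the members correlated with each other at Pearson r of 0.41 to 0.84 over 45 pairs, with a median of 0.63. These values are a description, as the libraries share depth and regions and most low members have few reads. The highest with Ttr was Kcne2 (0.78) and the lowest was Prlr (0.44). Among the 12579 genes compared, leaving out members and predicted genes, those most like Ttr were Htr2c (0.77), Cldn1 (0.71), Atp2b3 (0.67), Car12 (0.67), Slc4a5 (0.66), Tmem72 (0.65), Prr32 (0.59), Aqp1 (0.59), Ace (0.57) and Sh3d19 (0.55). Of these 10, 7 were on the list of other choroid plexus genes, and the exceptions were Atp2b3, Prr32 and Sh3d19. That list was chosen with earlier results of these data known, so the overlap is a description only.

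Of the members, 6 overlap other annotated genes in GENCODE vM21 (GRCm38), where reads could be shared. Enpp2 (chr15:54838901-54952892, minus strand) overlaps Gm26684, and Folr1 (chr7:101858331-101870788, minus strand) overlaps Anapc15, both on the other strand. Clic6 (chr16:92485736-92541243) overlaps 2410124H12Rik and Prlr (chr15:10177238-10349180) overlaps Gm21973, both on the same strand. Otx2 (chr14:48657677-48673819, minus strand) also overlaps Gm49154, and F5 (chr1:164151838-164220277) overlaps Gm16548 and Gm16588. Kl (chr5:150952607-150993817), Sostdc1 (chr12:36314139-36318452) and Kcne2 (chr16:92292389-92298129) overlap no other annotated gene.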

How the data were processed

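Per the labels' protocols, tissue was dissociated and a low-input kit was used on very small amounts of total RNA. STAR 2.5.0a, DESeq2 1.20.0, FastQC, MultiQC and mm10 are named in the submitters' processing notes; the read counter, annotation and strand setting are not given in the sources used here. The authors deposited 6 tables of a normalized signal per gene, each scaled separately. All values were whole multiples of 1 step per library (100% within 0.05 reads; a weak check in olfactory bulb P28 cKO replicate 2, whose step is near 1), so reads were recovered by division. Dates stood in place of 27 symbols, which were restored from their position in the P28 cortex table.

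Genes with a table mean of at least 10 were tested on log2(value + 1) with limma 3.58.1 (trend) in R 4.3.3, Benjamini-Hochberg adjusted over all genes tested, threshold 0.05. The fits were tested on simulated data with 200 genes changed 4-fold. Between P14 and P1 they recovered 92% of these in cortex and 88.5% in olfactory bulb. Between genotypes at P28 they recovered 46.5% in hippocampus, 56% in olfactory bulb and 65.5% in cortex. The lack of calls at P28 therefore does not show that the genotypes were alike. RPM (reads per 1000000) leaves out Rn45s. The alternatives tried were a mean of at least 100 or no filter, pseudocounts of 0.1 and 8, TMM scaling, quantile normalization, edgeR 4.0.16 and DESeq2 1.42.0 on recovered reads, the round of deposit, and leaving out each library. Counting separated genes without 1 of 2 libraries was added after seeing the data. The rule for named genes took the 10 members, the marker lists, and the 10 genes most like Ttr among those without a predicted-gene name. Members and lists were chosen with earlier results of these data known. Promoter sequences are from RefSeq (GRCm38.p6), which held 5 of the 10 members.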

Additional observations from a re-analysis of the deposited data

Results flagged for a closer look

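In groups of 4 libraries, 9 of 40 checks of a member found 1 library far from the other 3. Chance gives about 1 in 20 for a single check of normally distributed values, which unlogged reads with zeros are not. Where 3 libraries have 0 reads, any read in the remaining library is flagged. That was so for Folr1 in cortex P28 control replicate 4 and for each case in cortex P14. The members also vary together, so the checks are not separate trials. Of these, 6 were in cortex P28 control replicate 4: Ttr at 7424 normalized reads with the next control at 498, Enpp2 at 4068 with the next at 538, F5 at 176, Sostdc1 at 45.6, Folr1 at 30.4 and Kcne2 at 13.1. The other 3 were in cortex P14 and rest on 6, 1 and 2 reads in 1 library with 0 in the rest: Folr1 at 3.12 and Otx2 at 0.519 in replicate 4, and Kcne2 at 1.26 in replicate 2.

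Some members were higher at the later age in 1 region and lower in another, with no overlap between ages in either; the difference between regions was not tested. The hippocampus values here come from the ages in which Ttr led to the list, so they are a description only. From P7 to P14, Otx2 was lower in cortex (P14 mean 0.13 normalized reads) and higher in hippocampus (156.1) and olfactory bulb (108). From P1 to P14 it was also lower in cortex, at 0.13, and higher in hippocampus, at 156.1. Ttr from P1 to P14 was higher in hippocampus (P14 mean 6073) and lower in olfactory bulb (1.99). Kl from P7 to P14 was higher in hippocampus (132). In olfactory bulb it had 0 reads in each P14 library, a mean of 0, against 4, 10 and 6 reads at P7, but 3 reads per library would allow 1.40 to 2.00 RPM at P14 where P7 was at 1.08 to 3.12 RPM, so no fall is shown.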

How the results depend on the processing

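The number of members called between genotypes stayed at 0 in cortex, hippocampus and olfactory bulb under every alternative run. From P1 to P7 in cortex the count of 1 became 2 with a pseudocount of 8, no filter, quantile normalization or DESeq2, and 0 to 2 on leaving out a library. From P7 to P14 in cortex the count of 0 became 1 with a pseudocount of 8 (Clic6) or no filter (Otx2), and 0 to 1 on leaving out a library. From P1 to P14 in cortex the count of 1 (Enpp2) became 0 with a pseudocount of 0.1, 2 with no filter (Otx2 and Prlr, no longer Enpp2), and 0 to 2 on leaving out a library. In olfactory bulb, no filter gave 3 from P1 to P7 and 2 from P1 to P14, in place of 1. From P7 to P14 there, the count of 2 became 1 with a mean of at least 100 or quantile normalization, and 0 to 2 on leaving out a library.

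Direction turned for these log2 differences. In cortex P28, Ttr was -0.81 with edgeR, -0.79 with DESeq2 and -0.21 with the round of deposit; Enpp2 was -0.24 and -0.23 with the count tests; F5 was -0.72, -0.67 and, with quantile normalization, -0.034; Otx2 was -0.22 with quantile normalization. On leaving out a library there, Ttr ran from -1.56 to 1.57, Enpp2 from -0.25 to 1.04, Otx2 from -0.60 to 1.15 and F5 from -0.34 to 1.57. In the developing cortex, Ttr from P7 to P14 ran from -1.79 to 0.76 and Clic6 from P1 to P14 from -0.20 to 0.65. From P1 to P7 in hippocampus, Prlr was -0.27 with quantile normalization and ran from -0.23 to 1.24, and Otx2 ran from -1.22 to 0.32. At P28, Prlr in hippocampus ran from -1.55 to 0.016, and in olfactory bulb Enpp2 ran from -0.34 to 0.00097 and F5 from -1.75 to 0.12, while Otx2 kept its sign at 0.013 to 1.08. The cause was not tested. Of the 10 genes most like Ttr, 6 to 8 stayed among the 10 highest when values were centred by table in place of group or a rank (Spearman) correlation was used. When centred by table, Atp2b3 ranked 274, Sh3d19 864, Aqp1 13 and Car12 11. With the rank correlation, Aqp1 ranked 59 and Prr32 40.

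No paired analysis was possible because replicate numbers follow accession order and pair no libraries across the groups compared. Library numbers in the P28 labels run in adjoining sets across regions within 1 genotype; the labels do not say that a set is 1 animal, and such sets pair no cKO library with a control. Fits without hippocampus P28 control replicate 1 or 2 leave 1 control, which is assumed to vary like the other group. Members with few reads, such as Folr1 and Kcne2 outside the P28 hippocampus, fell below the filter on low values. Small differences in them would not be seen at this depth.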
